A study of Mus musculus with 3 samples.

Results

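Transcripts of 38 imprinted genes were followed in single cells of mouse blastocysts at embryonic day 3.5. The genes were taken by name from a list of imprinted loci, and they are 38 of the 23154 gene symbols counted. All of them were looked up in 225 of 288 cell barcodes, those in which at least 2000 genes had a count. The questions asked of the list were which genes have transcripts at this stage and which differ between cells high and low in the summed level of Krt8 and Krt18, the simple epithelial keratins that mark the trophectoderm, the outer layer of the blastocyst. The counts hold no information on the parental allele, so nothing below bears on whether a transcript came from the maternal or the paternal copy.

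Imprinted genes are expressed mainly from the maternal or mainly from the paternal copy, because the germ lines leave different marks on the same locus. Most of these marks are DNA methylation at imprinting control regions, which the early embryo protects through the zinc finger proteins ZFP57 and ZFP445 and their partner TRIM28 while methylation is lost elsewhere. A further class, to which Sfmbt2, Jade1 and Gab1 belong, is silenced on the maternal copy by histone H3 lysine 27 trimethylation inherited from the oocyte and is known from preimplantation embryos and extraembryonic tissue. Imprinted products act in fetal growth, in the placenta and in the brain.

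According to the protocols in the labels, the mice carried H2B-mCherry at the Klf2 locus as a reporter, embryos were taken at embryonic day 2.5, and culture was both static and shaken. Single cells of mCherry-positive embryos were picked by mouth pipette into 3 libraries of 96 barcodes, here replicates 1 to 3. All 3 libraries carry the same reporter and form 1 group, since the labels do not tell which cells were shaken, and nothing says that they came from separate litters or cultures. The p-values therefore measure only the spread between these libraries, which may be technical.

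Replicates 1, 2 and 3 gave 83, 64 and 78 cells, with median totals of 286484, 345414 and 608734 counts per cell. Within each library the cells were ranked by Krt8 plus Krt18 in CPM, the count of a gene scaled to a total of 1000000, and divided by rank into 3 groups of near equal size, so that 28, 21 and 26 cells were low and 28, 22 and 26 were high. These groups are ranges of a score and not cell types: 11, 8 and 8 cells lay within 1.25-fold of the lower boundary and 5, 6 and 5 within 1.25-fold of the upper one. Summed over 18 trophectoderm markers the high groups held 5303 ± 2617 CPM and the low groups 808 ± 326 (SD, n = 3). For 15 inner cell mass and epiblast markers the sums were 396 ± 160 and 1834 ± 380 CPM, and for 14 primitive endoderm markers 262 ± 51.4 and 920 ± 293. Sox2, a defining marker of the inner cell mass whose gene lies inside the span of Sox2ot, was at 0 counts in every cell. No pair of count columns was identical, and 46 barcode numbers were in use in all 3 libraries.

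A block of cells stood apart. Barcodes 33 to 64 of replicate 1 held 29 cells, of which 22 were in the low group of that library and 1 in the high group. The sources used here do not say what a block of 32 barcodes stands for. Of 17448 genes with counts, 4959 were higher in this block than in each of the other 8 blocks and 3243 were lower. Summed oocyte markers stood at 376 CPM there, mostly Zp3 at 357 CPM, and at 4.99 to 28.9 CPM in the other blocks. The edgeR differences of the 24 imprinted genes tested below are therefore given, singly or as a range, with and without these 29 cells, a choice made after the data had been seen. Shares of cells and pairs of genes found together are given without leaving this block out.

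The regulatory sequence is shown for Meg3, Rian and Zdbf2, the 3 with the largest differences among 7 genes whose level was lower in keratin-high cells in all 3 libraries. Each line is the RefSeq promoter window on GRCm38.p6, from 250 bases before to 50 bases after a transcript start, on the plus strand and written 5′ to 3′. Capitals mark the hexamer TGCCGC or its reverse complement GCGGCA, the letters that ZFP57 binds when they are methylated.
Meg3 promoter, chr12:109540746-109541045: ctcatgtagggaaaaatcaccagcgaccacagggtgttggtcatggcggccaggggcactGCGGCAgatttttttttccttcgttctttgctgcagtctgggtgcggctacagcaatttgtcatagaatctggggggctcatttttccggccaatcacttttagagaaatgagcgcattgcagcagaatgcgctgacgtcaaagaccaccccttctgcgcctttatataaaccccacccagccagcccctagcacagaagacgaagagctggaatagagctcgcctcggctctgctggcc
Rian promoter, chr12:109603695-109603994: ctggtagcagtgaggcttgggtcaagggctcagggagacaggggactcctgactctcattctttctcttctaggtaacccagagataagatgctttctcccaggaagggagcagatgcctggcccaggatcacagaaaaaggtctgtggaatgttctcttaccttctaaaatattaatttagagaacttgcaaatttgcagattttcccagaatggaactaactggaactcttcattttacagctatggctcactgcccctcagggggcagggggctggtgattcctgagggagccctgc
Zdbf2 upstream promoter, chr1:63200108-63200407: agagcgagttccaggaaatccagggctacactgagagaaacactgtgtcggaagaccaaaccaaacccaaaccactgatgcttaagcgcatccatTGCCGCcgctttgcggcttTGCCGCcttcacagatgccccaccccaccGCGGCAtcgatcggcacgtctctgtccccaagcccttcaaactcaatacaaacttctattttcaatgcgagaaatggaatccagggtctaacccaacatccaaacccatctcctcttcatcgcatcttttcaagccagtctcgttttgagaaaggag
Zdbf2 downstream promoter, chr1:63273019-63273318: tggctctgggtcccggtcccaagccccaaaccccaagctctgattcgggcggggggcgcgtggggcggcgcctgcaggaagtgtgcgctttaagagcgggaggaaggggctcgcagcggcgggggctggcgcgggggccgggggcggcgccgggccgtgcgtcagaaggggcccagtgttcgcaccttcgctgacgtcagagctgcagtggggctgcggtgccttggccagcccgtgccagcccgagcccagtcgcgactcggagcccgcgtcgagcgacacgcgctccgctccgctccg
The Meg3 window shown held 13 CpG dinucleotides and 1 copy of the hexamer, and a further Meg3 window in the table, chr12:109545148-109545447, held 1 CpG and 0 copies. By contrast, the Rian window held 0 CpG and 0 copies. The upstream window of Zdbf2 held 15 CpG and 3 copies, and its downstream window 38 CpG and 0 copies. Searched on both strands, the hexamer was present in at least 1 window of 11 of the 32 imprinted genes with an entry (34.4%). Of 17217 counted symbols 16.1% had it, and of all 32851 windows 11.6% did. The 11 were 5 of 20 genes detected by the rule given below, 2 of 5 found in fewer cells and 4 of 7 at 0 counts. With the window richest in CpG taken for each gene, the median was 18.5 CpG over the 32 genes and 15 over the counted symbols. In both comparisons a gene with more windows has more chances, and the number of windows per gene was not matched. Its part in these differences was not tested. A match is a description of the letters and says nothing of binding. Because only 3′ ends were captured, the counts do not tell the starts of Zdbf2 or Meg3 apart.

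Detection across the list was uneven. With detection defined as a count in at least 10% of the cells of each library, 23 of the 38 genes (60.5%) were detected, against 46.8% of all counted symbols. A further 7 genes had counts in fewer cells, and 8 had none (21.1%, against 24.6% of all symbols). Of the 16 genes known for maternal expression 11 were detected, and of the 22 known for paternal expression 12 were. Shares of cells depend on depth and on the number of molecules per cell. They are given per gene and do not rank transcript levels between genes.

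**Figure D1:**
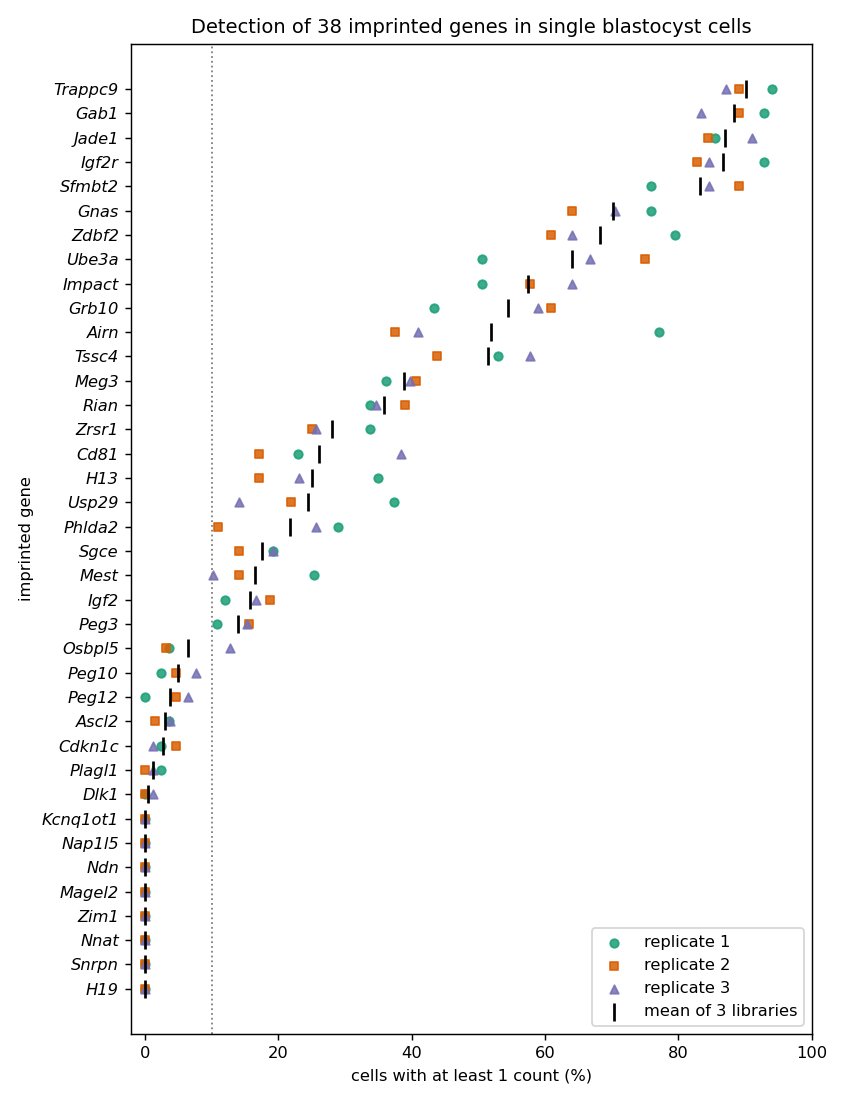
Share of cells with at least 1 count (%, horizontal axis) for each of the 38 imprinted genes (vertical axis) in replicates 1 (circles), 2 (squares) and 3 (triangles), with the mean of the 3 libraries as a bar and the 10% limit as a dotted line. Trappc9, Gab1, Jade1, Igf2r and Sfmbt2 lie at 75% or more in each library, and 8 genes lie at 0.

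Among the 5 non-coding RNAs, Meg3, Rian and Airn were detected and H19 and Kcnq1ot1 were not. Meg3, the maternally expressed long RNA of the Dlk1-Dio3 domain on chromosome 12, had a count in 36.1%, 40.6% and 39.7% of cells in replicates 1 to 3. Its level over all cells of a library was 14.3, 25.8 and 29.3 CPM. Rian, a host of small nucleolar RNAs transcribed downstream of Meg3 on the same strand, had a count in 33.7%, 39.1% and 34.6% of cells, at 8.22, 11.6 and 9.86 CPM. Their shares of cells were similar in the 3 libraries. Dlk1, the paternally expressed gene of the domain and a Notch-like growth regulator, had 7 counts, all in 1 cell.

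Airn, the paternal RNA that silences Igf2r in cis, was far from even between libraries. It had a count in 77.1% of the cells of replicate 1, at 62.8 CPM, and in 37.5% and 41.0% of those of replicates 2 and 3, at 9.12 and 11 CPM. The excess in CPM lay in the block of barcodes 33 to 64 of replicate 1, at 122.3 CPM, whereas the other blocks of that library stood at 8.74 and 14.3 CPM. The excess in share did not lie there alone, since 70.0% and 70.8% of cells had a count in those other blocks, against 23.1% to 54.2% in the blocks of replicates 2 and 3. The span of Airn on chromosome 17 is 39.9% covered by neighbouring gene spans, mainly that of Igf2r on the opposite strand. No exonic base of either gene is shared in GENCODE M21, but the sources used here do not say whether the counting used strand.

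Of the 7 growth regulators 4 were detected. Igf2r, the receptor that carries insulin-like growth factor 2 to the lysosome, had a count in 92.8%, 82.8% and 84.6% of cells, at 70.0, 100.1 and 48.0 CPM. Gab1, a docking protein of receptor tyrosine kinases, was present in 92.8%, 89.1% and 83.3% of cells, and Grb10, an adaptor that restrains insulin signalling, in 54.4% ± 9.62 (SD, n = 3). Igf2 itself, the paternally expressed growth factor, had a count in 15.8% ± 3.43 of cells and a level of 1.58 ± 0.954 CPM. Cdkn1c, a cyclin-dependent kinase inhibitor, and Plagl1, a zinc finger factor of fetal growth, had 24 and 42 counts in 6 and 3 cells.

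Of 5 further genes on the distal part of chromosome 7, several of which act in the placenta, 3 were detected. H19, Kcnq1ot1, Igf2 and Cdkn1c lie in the same region and are given above with the non-coding RNAs and growth regulators. Phlda2, which limits placental growth, had a count in 28.9%, 10.9% and 25.6% of cells, and Cd81, a tetraspanin, in 22.9%, 17.2% and 38.5%. Tssc4, a splicing-related gene, was found in 51.5% ± 7.10 of cells. Ascl2, a basic helix-loop-helix factor of trophoblast, had 82 counts in 7 cells, and Osbpl5, an oxysterol-binding protein, had 193 counts in 15 cells.

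Of 6 genes for zinc finger proteins, chromatin factors and the neighbours of Peg3, 5 were detected, all known for paternal expression. Jade1, a subunit of a histone acetyltransferase complex, had a count in 85.5%, 84.4% and 91.0% of cells, and Sfmbt2, a polycomb protein needed for trophoblast, in 75.9%, 89.1% and 84.6%. Zdbf2, a zinc finger gene whose paternal transcript is known from the early embryo, was found in 79.5%, 60.9% and 64.1%. Usp29 and Peg3 start back to back on chromosome 7, Usp29 at 6730578 on the plus strand and Peg3 at 6730431 on the minus strand, and were detected in 24.4% ± 11.8 and 14.0% ± 2.69 of cells. Zim1, next to Peg3, was at 0.

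Of the Prader-Willi and Angelman genes, Ube3a, a ubiquitin ligase, was detected in 64.1% ± 12.4 of cells, and Peg12 had 41 counts in 8 cells. Snrpn, a spliceosomal protein gene, and the melanoma antigen family genes Ndn and Magel2 were at 0. Of the 4 retrogenes, Zrsr1, a relative of a splicing factor, was found in 28.1% ± 4.87 of cells and Peg10, a retroelement gene needed for the placenta, in 4.93% ± 2.65, with 133 counts in 11 cells. Nnat and Nap1l5, both best known from neurons, were at 0.

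All 6 genes for enzymes, membrane proteins and signalling were detected. Trappc9, a vesicle trafficking factor, had a count in 90.1% ± 3.51 of cells, Gnas, the stimulatory G protein subunit, in 70.2% ± 5.93, and Impact, a translation regulator, in 57.5% ± 6.76. H13, a signal peptide peptidase, Sgce, a sarcoglycan, and Mest, a hydrolase of mesoderm, were found in 25.1% ± 9.04, 17.5% ± 3.0 and 16.5% ± 7.82. Over its last 500 exonic bases Mest is overlapped wholly by Copg2 on the opposite strand, so that reads of both genes cannot be told apart without a stated strand setting.

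For the 8 genes at 0 counts depth sets these limits. A count of 0 allows up to 3 counts in a library, which is 0.0983, 0.109 and 0.0553 CPM in replicates 1 to 3, and 0 of 83, 64 and 78 cells allows up to 4.35%, 5.6% and 4.62% of cells with a count (exact 95% binomial interval, counting error only). The latter limits cells with a captured count, not cells that express the gene. Their position in the annotation was uneven. Nnat lies wholly inside the span of Blcap, Kcnq1ot1 inside that of Kcnq1 and Nap1l5 inside that of Herc3. Overlap was looked up only against genes with a counted symbol, so other annotated genes may lie over any of these. Among 22086 symbols with 1 gene ID in GENCODE M21, 775 of 1026 genes wholly inside the spans of other counted genes were at 0 (75.5%). Of 16998 genes whose span no other counted gene touches, 3663 were at 0 (21.5%). For protein-coding genes alone, Nnat and Nap1l5 among them, the shares were 67.1% and 20.6%. Tssc4 and Zrsr1 also lie wholly inside another gene and had 2574 and 334 counts. H19, Zim1, Ndn and Magel2 are not overlapped by another counted gene, and Snrpn is overlapped over 6.09% of its span. Snurf, on the same strand, shares 10% of the exonic bases of Snrpn, and 0% of its last 500. Whether the counting removed reads from nested genes or from shared exonic bases was not tested. A 0 for Nnat, Kcnq1ot1, Nap1l5 or Snrpn is only a value listed in the tables.

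Markers of other tissues were read by the same rule. No marker of blood or of fibroblasts was detected by the 10% rule (0 of 8 in each list), while 4 of 12 markers of differentiated tissues were, namely Apoa1, Ckm, Crygs and Actn2, with a share of up to 98.8% of the cells of a library. Of 8 cumulus and granulosa markers 2 were detected, Fshr and Nr5a2, and of 6 oviduct markers 1, Ovgp1. Nr5a2 is also known from the early embryo. A share above 10% was thus also reached by genes known from other tissues.

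Between cells high and low in Krt8 and Krt18, 24 of the 38 genes had enough counts for the test, and none of them passed it. The remaining 14 were the 8 genes at 0 and 6 of the 7 thinly detected ones. Among all 12164 genes tested 28 were called (0.23%) by the quasi-likelihood test of edgeR, blocked on library and adjusted by Benjamini-Hochberg. At an unadjusted p under 0.05 the edgeR test had 5 of the 24 imprinted genes, against 10.2% of all genes: Meg3, Zdbf2 and Igf2r lower and Cd81 and Osbpl5 higher in high cells. DESeq2 called 3 of them, Meg3, Zdbf2 and Osbpl5 (6.38% of all genes), and limma called Meg3 (2.76%).

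The 24 genes went both ways between keratin-high and keratin-low cells. Of their log2 fold changes 14 lay below and 10 above 0, with a median of -0.63, against -0.01 over all genes tested. The 12 genes known for maternal expression had a median of -0.82 and the 12 for paternal expression one of 0.19. Without barcodes 33 to 64 of replicate 1, 13 lay below and 11 above 0, and the medians were -0.11 for the 24 genes, -0.48 for the maternal and 0.28 for the paternal set. The direction was the same in all 3 libraries for 12 of them, 7 lower and 5 higher with all cells, against 37.1% of all genes.

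**Figure D2:**
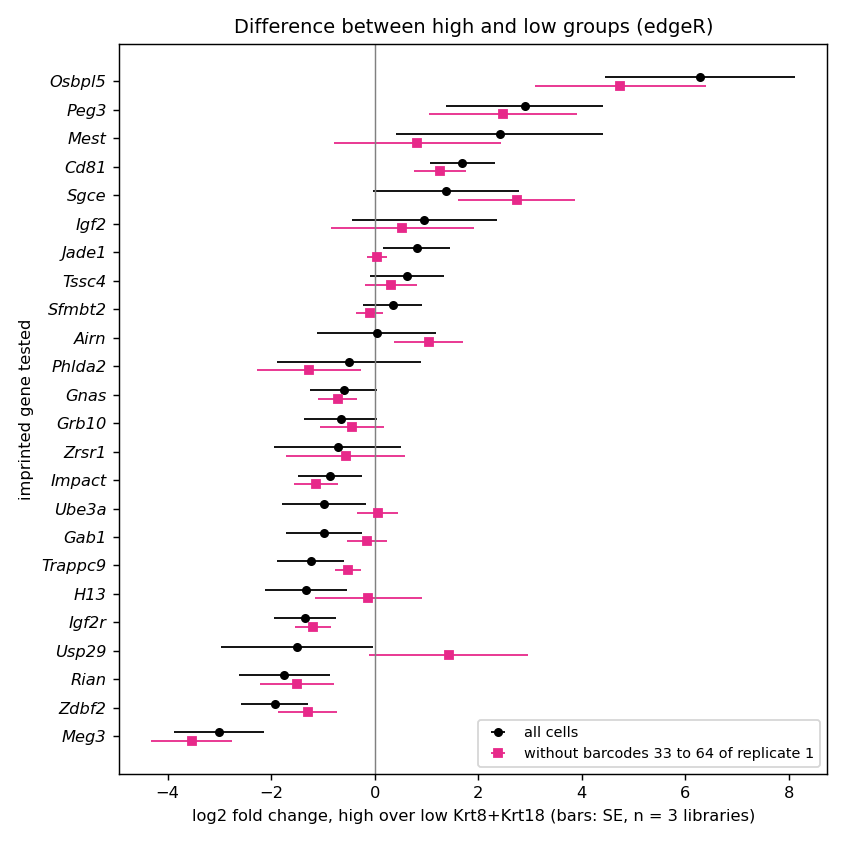
Log2 fold change of keratin-high over keratin-low cells (horizontal axis, 0 marked) for the 24 imprinted genes tested (vertical axis), with standard errors from edgeR over 3 libraries, for all cells (black circles) and without barcodes 33 to 64 of replicate 1 (pink squares). Meg3 lies lowest at -3.01 and -3.54, and Usp29 changes side.

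Meg3 showed the widest gap among the well-counted genes. Its level in the low groups of replicates 1, 2 and 3 was 16.5, 32.4 and 66.4 CPM, and in the high groups 2.12, 13.7 and 2.72 CPM. Every low value exceeded every high value, and the middle groups, at 24.6, 34.3 and 29.7 CPM, lay with the low ones in replicates 1 and 2. The fitted difference of high over low was -3.01 on the log2 scale (SE 0.87, edgeR adjusted p = 0.224), a level 8.06-fold higher in low cells that did not pass the threshold. Without barcodes 33 to 64 of replicate 1, with groups redrawn, the low and high groups of replicate 1 held 32.1 and 1.17 CPM. The middle group of that library then held 8.62 CPM and no longer lay with the low one. In high cells Meg3 then fell by 3.54 on the log2 scale (SE 0.77, edgeR adjusted p = 0.0362), with 644 of 11875 genes called (5.42%).

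The call did not hold without replicate 3. With those barcodes and replicate 3 both left out, the Meg3 difference was -2.93 (edgeR adjusted p = 0.184, 2.99% of all genes called), and with replicate 2 left out instead it was -4.68 (edgeR adjusted p = 9.08e-05, 6.59% called). Cells were also ranked by 18 trophectoderm markers, Krt7 and Krt19 included, minus inner cell mass and epiblast markers. Of the latter 15, 14 entered, since Sox2 had no count. With this score in place of Krt8 plus Krt18, the Meg3 difference was -4.28 (edgeR adjusted p = 0.0115, 2.79% of all genes called). Since the marker sums given above differ between the same groups, their part in the difference of Meg3 was not tested.

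Rian, downstream of Meg3, lay the same way. It stood at 10.2, 13.8 and 14.4 CPM in the low groups and at 3.29, 8.34 and 2.26 CPM in the high groups, with no overlap. With all cells the middle groups held 10.8, 13.3 and 14.1 CPM, close to the low ones. Without barcodes 33 to 64 of replicate 1, with groups redrawn, this did not hold in replicate 1. Its low, middle and high groups then held 8.80, 3.30 and 4.33 CPM of Rian. The fitted difference of Rian was -1.75 (SE 0.87, edgeR adjusted p = 0.531) with all cells and -1.50 without those barcodes (edgeR adjusted p = 0.303). Meg3 and Rian were the only genes of the 24 whose high groups lay wholly below their low groups, an arrangement that 5.48% of all genes tested had, and Peg3 and Osbpl5 the only ones with the opposite order, which 6.63% had.

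**Figure D3:**
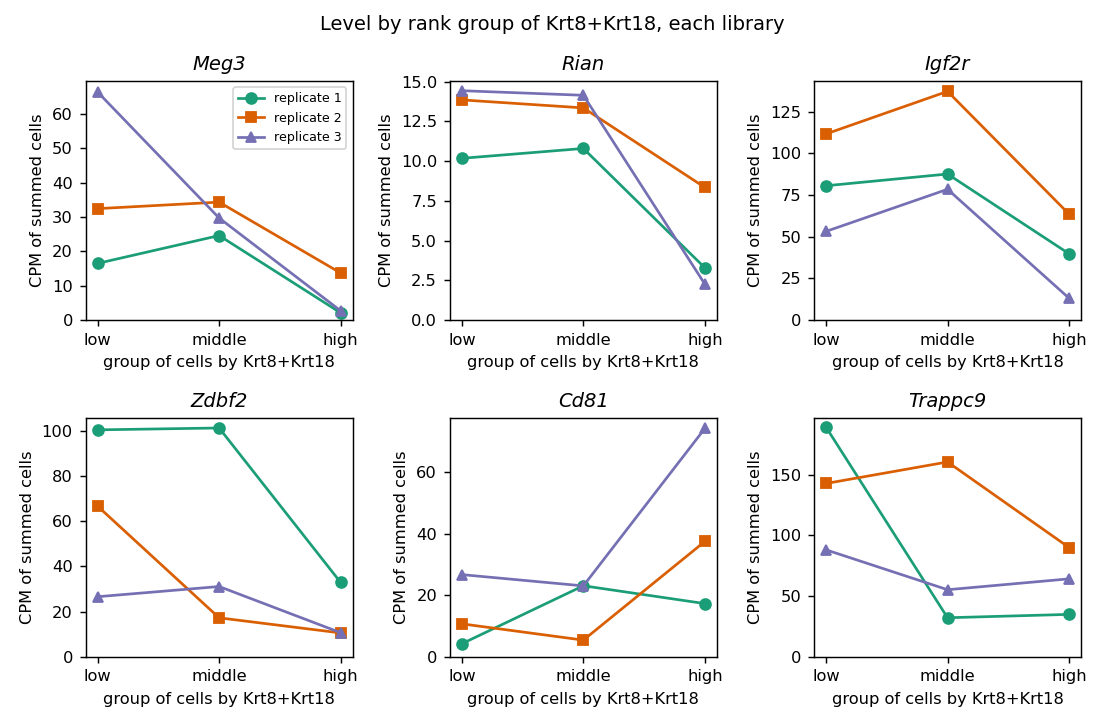
Level in CPM of the summed cells (vertical axes) in the low, middle and high group of cells by Krt8 plus Krt18 (horizontal axes) for Meg3, Rian, Igf2r, Zdbf2, Cd81 and Trappc9, with 1 line for each library. The high groups of Meg3, at 2.12 to 13.7 CPM, and of Rian, at 2.26 to 8.34 CPM, lie below all of their low groups.

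The same contrast appeared in the shares of cells. Meg3 had a count in 46.4%, 61.9% and 65.4% of low cells and in 14.3%, 31.8% and 19.2% of high cells. Leaving out cells under 50000 counts kept 26, 18 and 23 low and 26, 21 and 24 high cells. Thinned to 50000 counts each, 26.9%, 44.4% and 47.8% of these low cells had a Meg3 count. Of these high cells 3.85%, 28.6% and 4.17% had one. For Rian the thinned shares were 26.9%, 33.3% and 39.1% against 3.85%, 9.52% and 8.33%. By median, high cells were deeper than low cells in each library, with 310803, 483732.5 and 635141 counts against 283396.5, 411794 and 501074. The summed counts of replicate 1 ran the other way, with 9424710 in 28 high cells and 12484466 in 28 low cells. In the high groups few cells carried the counts: 1 cell held 45.0%, 62.9% and 81.5% of those of Meg3.

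Meg3 and Rian also tended to be found in the same cells. Of 87 cells with a Meg3 count 55 had one of Rian (63.2%), and of 138 cells without it 25 did (18.1%). In replicates 1 to 3 the shares were 56.7%, 73.1% and 61.3% against 20.8%, 15.8% and 17.0%. Over the 202 cells that could be thinned to 50000 counts they were 43.4% and 13.4%. Other neighbouring pairs are given after thinning. Airn was found in 26.9% of cells with Igf2r and 26.3% of those without it, and Usp29 in 16.7% of the 12 cells with Peg3 and 12.6% of the 190 without. Sgce was found in 33.3% of the 6 cells with Peg10 and 7.14% of the 196 without. Cells of a library share its depth and handling, and these shares are given without a test. They pool low, middle and high cells, and both Meg3 and Rian were found in fewer of the high cells. The part of the keratin groups in the shares of pairs was not tested.

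**Figure D4:**
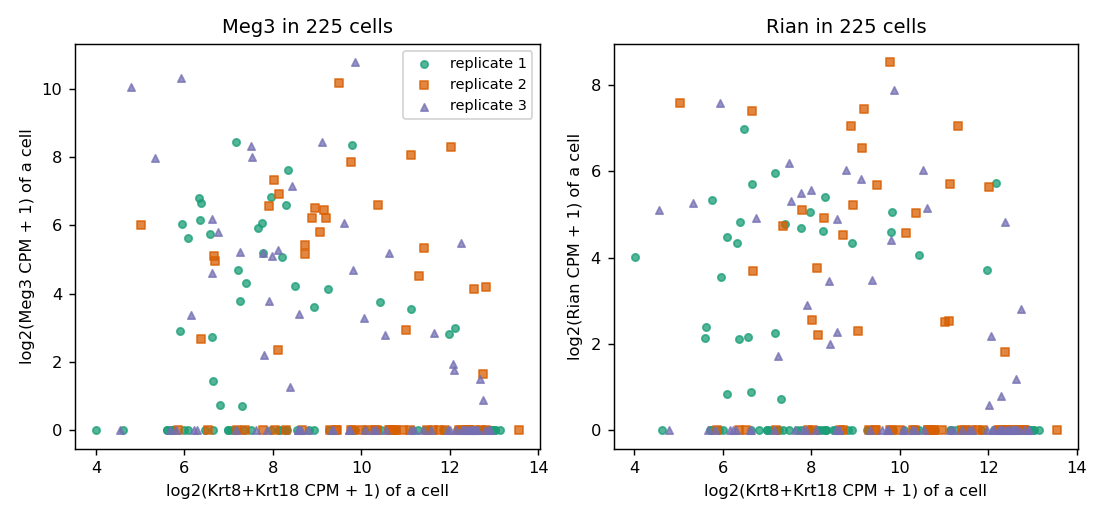
Level of Meg3 (left) and Rian (right) in each of 225 cells, as log2(CPM + 1) (vertical axes), against Krt8 plus Krt18 of the cell as log2(CPM + 1) (horizontal axes), with symbols for the 3 libraries. Cells without a count lie at 0 along the whole keratin range, and cells with a count thin out towards high keratin.

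Zdbf2 was lower in high cells of each library but not beyond the spread between libraries. Low groups held 100.4, 66.6 and 26.6 CPM and high groups 32.9, 10.5 and 10.7 CPM, so that the groups overlapped. The fitted difference was -1.93 (SE 0.65, edgeR adjusted p = 0.301). Without barcodes 33 to 64 of replicate 1 that library gave 30.1 CPM in low and 33.8 CPM in high cells, and the fitted difference was -1.30 (edgeR adjusted p = 0.267).

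Igf2r stood at 80.6, 111.7 and 53.2 CPM in low groups and at 39.8, 63.6 and 13.1 CPM in high groups. Within every library the high group was lower, while the ranges of the 2 groups overlapped. Its difference of -1.35 (SE 0.60) had an edgeR adjusted p of 0.481, and without barcodes 33 to 64 of replicate 1 it was -1.19 (edgeR adjusted p = 0.0885). Trappc9, H13 and Impact were likewise lower in the high group of every library, with differences of -1.24, -1.33 and -0.87 and edgeR adjusted p-values of 0.558, 0.609 and 0.679. Without barcodes 33 to 64 of replicate 1 they were -0.52, -0.13 and -1.14 (edgeR adjusted p = 0.308, 0.964 and 0.193). In replicate 1 H13 then turned round, with 3.69 CPM in low and 16.3 CPM in high cells.

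Cd81, Jade1, Peg3, Osbpl5 and Igf2 were higher in the high group of every library with all cells, and of these Jade1 and Cd81 had the most counts. Without barcodes 33 to 64 of replicate 1 that library turned round for 3 of the 5: low and high groups held 1.23 and 1.17 CPM of Cd81, 96.4 and 90.6 CPM of Jade1, and 2.46 and 1.33 CPM of Igf2. Cd81 held 4.25, 10.7 and 26.7 CPM in low groups and 17.3, 37.5 and 74.2 CPM in high groups, a difference of 1.69 (SE 0.63, edgeR adjusted p = 0.362), or 1.25 without those barcodes (edgeR adjusted p = 0.216). Shares of cells did not follow, since Cd81 was found in 32.1%, 23.8% and 42.3% of low cells and 17.9%, 18.2% and 30.8% of high cells, and 1 cell gave 69.9%, 55.5% and 48.5% of the counts of the high groups. Jade1 was higher in the high group of each library, by 0.81 (edgeR adjusted p = 0.723), and the difference was 0.04 without those barcodes (edgeR adjusted p = 0.941).

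Osbpl5 had the largest fitted difference, 6.29 (SE 1.84, edgeR adjusted p = 0.229), a value that depends on the prior count because the low groups held 0, 0 and 2 counts. The high groups held 14, 42 and 111 counts in 2, 2 and 7 cells. Peg3 held 5, 3 and 21 counts in low groups and 47, 90 and 42 in high groups, or 0.400, 0.303 and 1.49 CPM against 4.99, 8.63 and 2.11 CPM. The groups did not overlap, the difference was 2.89 (SE 1.51, edgeR adjusted p = 0.552), and 1 cell gave 83.3% of the high group of replicate 2. Mest differed by 2.41 (SE 2.0, edgeR adjusted p = 0.731) and went both ways, with 0.801, 0.101 and 5.83 CPM in low groups and 7.96, 6.04 and 1.31 CPM in high groups. Peg10 had too few counts for the test, with 0, 2 and 0 counts in low groups and 16, 8 and 106 in high groups. The differences of Osbpl5, Peg3 and Mest without barcodes 33 to 64 of replicate 1 were 4.75, 2.47 and 0.82 (edgeR adjusted p = 0.154, 0.402 and 0.841).

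The remaining 12 tested genes, Igf2, Grb10, Phlda2, Sgce, Airn, Sfmbt2, Usp29, Tssc4, Gnas, Zrsr1, Ube3a and Gab1, differed by between -1.50 for Usp29 and 1.37 for Sgce, with edgeR adjusted p-values of 0.699 to 0.993. They lay, without barcodes 33 to 64 of replicate 1, between -1.27 for Phlda2 and 2.74 for Sgce, with edgeR adjusted p-values of 0.231 to 0.961. Sfmbt2, at 0.35 (SE 0.58), and Gab1, at -0.98 (SE 0.74), were found in most cells of both groups. Airn, at 0.04 with an SE of 1.15, was high in the low group of replicate 1, at 138.1 CPM, and between 3.94 and 16.7 CPM in the other low and high groups.

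The block of barcodes 33 to 64 of replicate 1 differed from the other 8 blocks in 7 of the 30 imprinted genes with counts, 6 above and 1 below, beside the 4959 and 3243 of all 17448 genes. Usp29 stood at 112.9 CPM there and at 0.594 to 8.53 CPM in the other blocks, 13.2-fold above the highest of them. Airn stood at 122.3 CPM against 4.19 to 18.3 CPM, and Zdbf2 at 135.2 CPM against 13.9 to 37.7 CPM. These 3 paternally expressed genes were also found in many of the 29 cells, in 20, 26 and 25 of them, although 1 cell held 57.1% of the Usp29, 52.3% of the Airn and 22.3% of the Zdbf2 counts of the block.

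Ube3a, at 135.7 CPM against 14.9 to 40.9, and H13, at 28.2 CPM against 0.238 to 11.5, had 70.3% and 78.8% of their counts in the block from 1 cell. Cdkn1c had 11 counts in 2 cells. Sfmbt2 was the gene below, at 27.6 CPM against 36.6 to 169.7. Meg3 and Rian, at 16 and 11.6 CPM, lay within the range of the other blocks, 8.21 to 39.5 and 3.14 to 20.5 CPM. The oocyte markers given above were higher in the same block, and their part in these levels was not tested.

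**Figure D5:**
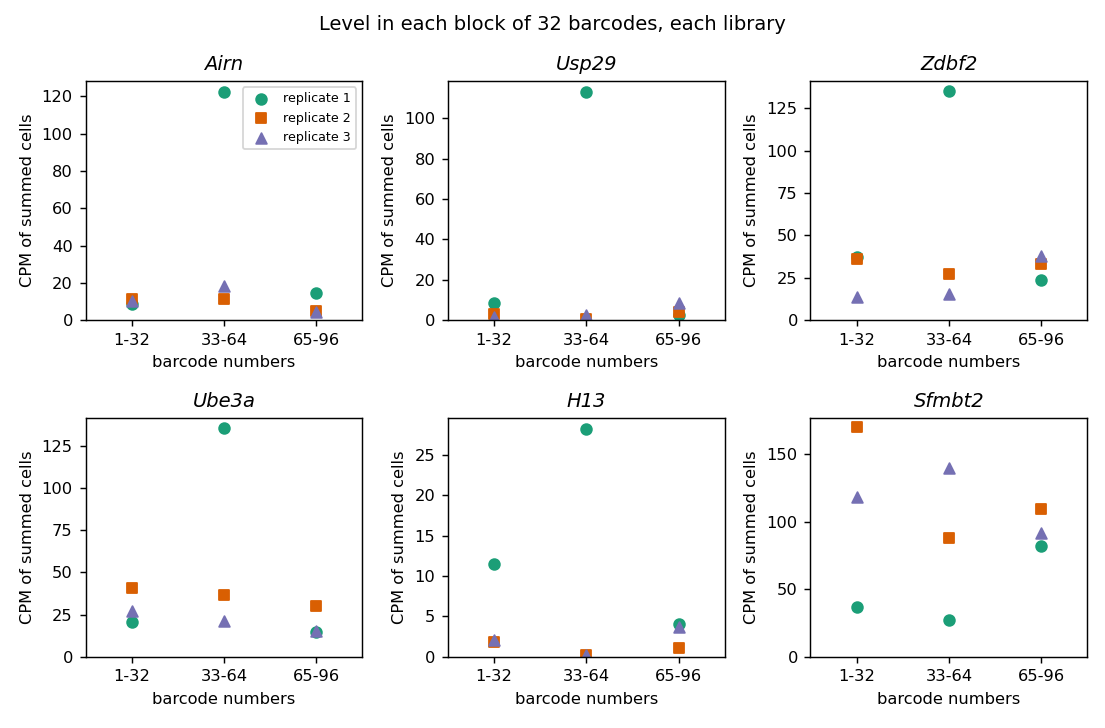
Level in CPM of the summed cells (vertical axes) in each block of 32 barcodes (horizontal axes) of the 3 libraries for Airn, Usp29, Zdbf2, Ube3a, H13 and Sfmbt2. Barcodes 33 to 64 of replicate 1 lie above all other blocks for the first 5 genes, for example at 122.3 CPM for Airn, and below them for Sfmbt2.

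Without those 29 cells 3 of the 24 genes changed sign. Usp29 went from -1.50 to 1.43, Sfmbt2 from 0.35 to -0.10, and Ube3a from -0.98 to 0.05. Jade1, H13, Mest, Trappc9 and Gab1, which went from -0.98 to -0.15, moved towards 0 without a change of sign. Others moved away from 0: Sgce went from 1.37 to 2.74, Airn from 0.04 to 1.04 and Phlda2 from -0.50 to -1.27. None of these values passed the edgeR test with or without the cells.

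A list of 40 other imprinted genes, 38 of them in the tables, was read in the same fit. By the 10% rule 16 were detected, 16 had counts in fewer cells and 6 had none. Of the 20 tested 0 were called in edgeR (0.23% of all genes), 6 had an unadjusted p under 0.05 (10.2%), DESeq2 called 4 (6.38%) and limma 1 (2.76%). The median log2 fold change was -0.05, and 0.26 over the 17 tested without barcodes 33 to 64 of replicate 1. In that fit 1 was called (5.42% of all genes): Pon2, a paraoxonase gene near Peg10, rose in high cells by 2.80 on the log2 scale (edgeR adjusted p = 0.0460). Its level with all cells was 6.89, 35.1 and 3.48 CPM in low groups and 54.2, 186.2 and 110.0 CPM in high groups.

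All 30 genes of a list of factors linked to imprints, 5-methylcytosine oxidases among them, were detected. In edgeR 0 of 30 were called with all cells (0.23% of all genes), 2 had an unadjusted p under 0.05 (10.2%), Dnmt3b and Dnmt3l, and DESeq2 and limma called 1 each (6.38% and 2.76%). The median log2 fold change was -0.41, and -0.19 without barcodes 33 to 64 of replicate 1. In that fit edgeR called 5 of 30, against 5.42% of all genes: the de novo methyltransferase Dnmt3b and its cofactor Dnmt3l rose in high cells, by 1.51 and 1.69 on the log2 scale (adjusted p = 0.0123 and 0.0274). The 5-methylcytosine oxidase Tet1 fell by 1.63, the corepressor Trim28 fell by 1.0 and the maternal factor Dppa3, which shields methylated DNA from oxidation, fell by 0.80 (edgeR adjusted p = 0.00303, 0.0406 and 0.00714). Dnmt3b stood at 32, 33.1 and 65.3 CPM in low groups and at 158.0, 146.0 and 176.9 CPM in high groups with all cells.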

How the data were processed

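Per the labels' protocols, cDNA was made from polyadenylated RNA of single cells with a variant of Smart-seq2, in which the oligo(dT) primer held a cell barcode and a molecular identifier of 8 nt each. After 17 and 5 PCR cycles 3′ ends were captured and read as 150 bp pairs, at a stated mean of 200 M reads per library. The authors deposited whole-number counts per gene and barcode, not normalized. Per the submitters' processing notes the tools were CASAVA 1.8, HISAT2 and HTSeq with build mm10. The sources used here do not name the annotation or strand setting, or say how molecular identifiers were used, so counts may be molecules or reads, and intervals and limits cover counting error only.

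The 38 genes and all other lists were chosen with earlier results of these data known. Cells needed 2000 genes with a count, and doublets were not called, since single cells had been picked manually. Within a library cells were divided by rank of Krt8 plus Krt18 CPM into 3 groups, and counts of the highest and lowest group were summed, so that the library was the replicate. edgeR 4.0.16 in R 4.3.3 (filterByExpr, TMM, quasi-likelihood test, library as block) tested all genes, with Benjamini-Hochberg adjustment over 12164 genes plus Krt8 and Krt18, and a threshold of 0.05. The keratins do not enter any number of called genes. The pairing comes from the design, since both groups of a pair come out of the same library. Groups were drawn on the cells that were then tested, and p-values do not include that step. Full values are given for called imprinted genes of the list and for the 6 tested ones with the largest differences (Osbpl5, Meg3, Peg3, Mest, Zdbf2 and Rian). Of other lists, genes called by edgeR are given with difference and adjusted p, and Pon2 and Dnmt3b also with levels. Further genes were described after their values were seen.

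Alternatives used DESeq2 1.42.0, limma 3.58.1 on mean log2(CPM + 1) per cell, other scalings and filters, other ways to draw the groups, thinning to 50000 counts, and each library left out. The edgeR test was also run on simulated data. Whether the spread of those data matched that of the fit with all cells was not tested. No conclusion on that fit is drawn from the simulation. Gene positions are from GENCODE M21, which matched 22124 of 23154 symbols and all 38 imprinted genes. Overlaps between genes were looked up only among the matched symbols. Promoter windows are from RefSeq (GRCm38.p6), which had entries for 32 of the 38 genes.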

Additional observations from a re-analysis of the deposited data

Results flagged for a closer look

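Barcodes below 2000 genes took no part in any comparison and still held counts of the imprinted genes. In replicate 1 the 13 such barcodes held 42 counts, in replicate 2 the 32 held 63 counts, and in replicate 3 the 18 held 34 counts, spread over 7, 15 and 10 of the genes. Scaled to the totals of these barcodes this is 889, 682 and 189 CPM for the genes together, above the 63.5, 32.5 and 16.7 CPM that a count of 0 allows (3 counts per library). The cells of the same libraries held 813, 1021 and 691 CPM. Igf2r, Sfmbt2 and Impact gave the most, with 24, 18 and 11 counts. There are no blank wells to compare with.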

How the results depend on the processing

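The number of imprinted genes called was 0 in the edgeR test and in 11 of 15 alternatives. It was 3 with DESeq2 and 1 with limma, with groups by marker score and without barcodes 33 to 64 of replicate 1. Over all genes 28 were called. The count was 10 with DESeq2 size factors in edgeR, 172 without a filter, 843 with DESeq2, 336 with limma, 84 with 2 groups split at the median, 335 with groups by marker score, 60 with groups drawn within blocks of barcodes, 58 after thinning, 7 with 4000 genes per cell, 209 without cells over 2.5 times the median total, and 644 without barcodes 33 to 64 of replicate 1. It was 20 to 549 with 1 replicate left out (549, 153 and 20 without replicates 1, 2 and 3). Without the replicate block, that is without the pairing, 0 genes were called, and Meg3 stood at -2.81 (edgeR adjusted p = 0.472).

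Other imprinted genes called were 0, then 1 without a filter, 4 with DESeq2, 1 with limma, 1 without the block of barcodes and 0 to 1 with 1 replicate left out. For imprint factors the count was 0, then 1 with DESeq2, 1 with limma, 2 by marker score, 1 without cells of high total, 5 without the block of barcodes and 0 to 4 with 1 replicate left out. Detected genes went from 23 to 15 at 25% of cells and to 15 at 3 counts per cell, and thinning left 16.

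Of 24 genes 12, Meg3, Rian, Zdbf2 and Igf2r among them, kept their direction in every alternative that gave a value. Adjusted p of Meg3 ran from 0.00397 to 0.938, the last without replicate 3. Reversed log2 differences were: Peg3 -0.34, Sfmbt2 -0.074 and Ube3a 0.62 with groups drawn within blocks; Sgce -0.33 and Airn -0.55 with 2 groups; Airn -0.0018, Sfmbt2 -0.099, Gnas 0.20 and Zrsr1 0.12 with limma; Airn -2.32 without the replicate block. By marker score Usp29 stood at 0.74, Trappc9 at 0.18, Ube3a at 0.10 and Gab1 at 0.084. Without cells of high total Sfmbt2 stood at -0.051 and Ube3a at 0.19, and without barcodes 33 to 64 of replicate 1 Sfmbt2 at -0.099, Usp29 at 1.43 and Ube3a at 0.054. With 1 replicate left out the ranges were -1.14 to 0.065 for Grb10, 0.085 to 0.67 for Sfmbt2, -1.74 to -0.033 for Ube3a, -1.93 to 1.07 for Phlda2, -1.31 to 1.49 for Airn and -3.06 to 0.55 for Usp29. The median of all genes moved from -0.01 to -0.12 without a filter, -0.17 with DESeq2, 0.13 with limma, -0.18 without the replicate block and 0.12 without replicate 3. The cause of these changes was not tested. Depth limits the thinly counted genes, with an SE of 1.51 for Peg3 and 1.84 for Osbpl5 against 0.58 for Sfmbt2.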
